A study of Mus musculus with 64 samples.

Results

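The adipose tissue arrays of 16 mice were set against each other by plasma triglyceride, with 8 mice of high and 8 mice of low triglyceride. They were taken by their labelled tissue and triglyceride group and are 16 of the 64 arrays of the series, in which liver, pancreas and skeletal muscle of the same mice were also measured. All mice were F2 males of the TALLYHO x C57BL6 cross, made from the inbred strains TALLYHO/JngJ and C57BL/6J, so each mouse carried its own mixture of the alleles of both strains. TALLYHO is an inbred mouse strain with obesity, high plasma lipids and, in males, diabetes. Mice of both groups were fed a standard rodent chow ad libitum and were killed at 24 weeks of age. The high group came from the upper tail and the low group from the lower tail of the plasma triglyceride distribution of the F2 males, and overtly diabetic mice were not taken. The groups were therefore chosen by a trait and not by a treatment or a single allele, and neither group held a parental strain. Adipose RNA of a mouse came from pads of the groin (inguinal), the shoulder blades (subscapular) and the abdomen (epididymal, perirenal and retroperitoneal), pooled and homogenized whole, so no value belongs to 1 depot. Each array was one-colour and its values are log2 signals, in which a difference of 1 is a 2-fold difference.

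White adipocytes store triglyceride made from fatty acids that lipoprotein lipase releases from circulating lipoproteins and from fatty acids made in the cell itself. They release fatty acids again by lipolysis, and insulin promotes storage and restrains release. Adipocytes also secrete hormones, of which leptin follows the mass of stored fat, and an enlarging fat pad remodels its collagen matrix and takes up macrophages. Mitochondria of the fat cell oxidize fuel through the respiratory chain, and in brown adipocytes the uncoupling protein Ucp1 turns that oxidation into heat.

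The labelled tissue was checked by its markers. Adipoq, the gene of the adipocyte hormone adiponectin, had a lowest, median and highest level of 14.82, 15.00 and 15.19 in the high group and of 14.82, 14.99 and 15.21 in the low group. Fabp4, the adipocyte fatty acid binding protein, differed by -0.03 between the groups. Both were thus near the top of the scale on every array, whose lowest value is 2.24. Plin1, the adipocyte lipid droplet protein, is not analysed here because no probe set was paired with it.

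Markers of tissues other than white fat varied far more between arrays than the adipocyte markers did. The level of a marker list is given as the mean over its members of log2 minus each member's mean over the 16 arrays. All 24 skeletal muscle markers averaged lower in the high group, with a median difference of -1.17 that was -0.48 without high 3 and -2.01 without low 6. At an unadjusted p of 0.05, 2 of the 24 were lower, a share near the 8.76% of all genes with a mean log2 of 4 or more. The muscle level ran from -5.33 on high 3 to 1.87 on high 8 in the high group, and from -5.04 on low 6 to 3.02 on low 2 in the low group. It was above 2 on 5 low arrays and on no high array. Brown fat markers were raised on single arrays of both groups, at 1.27 on high 1 and high 8 and 1.29 on low 5, and the lowest level was -1.68 on high 4. Of 14 brown fat markers 9 averaged lower in the high group, and their median difference was -0.21. It was -0.77 without low 1 and 0.03 without low 5, so that 1 array turned its sign. Lymphoid markers (B and T cell genes together) ran from -1.88 on high 3 to 2.28 on high 4 in the high group and from -2.05 on low 1 to 1.61 on low 8 in the low group. The sums of the unlogged signals followed the same arrays, at 10.11 to 16.43 log2 for muscle in the high group and 10.68 to 17.49 in the low group.

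Signal of other organs was present as well. Adrenal and kidney markers were at 3.18 on high 6 and 2.54 on high 8, and between 2.11 and 5.15 on low 3, low 5, low 6 and low 7. On each of the other arrays they were between -1.83 and -1.74. Liver markers were at 2.64, 3.03 and 2.10 on high 2, high 3 and high 4, and at 0.16 or less on all other arrays. Alb, the gene of serum albumin, reached 11.41 in the high group and 7.02 in the low group, and 4 of 9 liver markers were higher in the high group at an unadjusted p of 0.05, against 1.26% of all genes given below, while 1, Cyp2e1, was lower. Pancreas markers stood at 2.94 on low 4 alone, and mesothelium markers, the lining of the abdominal cavity, were highest at 1.24 on high 3 and 2.03 on low 1. The adipocyte level stayed between -0.15 and 0.13 in the high group and between -0.16 and 0.16 in the low group. It is the mean of only 2 genes, Adipoq and Fabp4, which lie near the top of the scale. Fabp4 probe sets with group means of 10.65 to 11.15 varied more. Their SDs were 0.43 and 0.56 in the high group and 0.59 and 1.12 in the low group. Of these signals, only the muscle, brown fat, lymphoid, and adrenal and kidney levels entered fits as covariates, with the macrophage level added. Their part in the comparisons below was not tested beyond those fits. The liver, pancreas and mesothelium levels entered no fit, and their part was not tested.

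**Figure D1:**
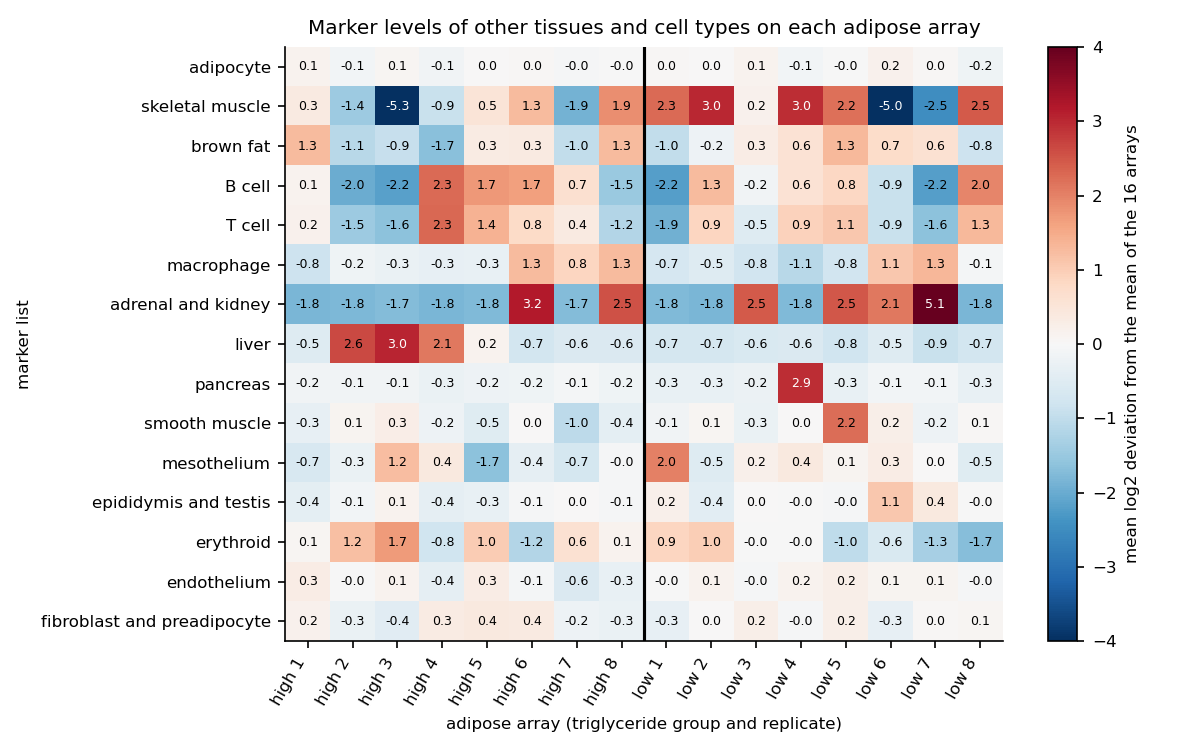
Level of each marker list on the 16 adipose arrays, with the 8 high triglyceride arrays on the left and the 8 low triglyceride arrays on the right. The adipocyte level, the mean of only Adipoq and Fabp4, varied by at most 0.16 from 0, while the muscle level ran from -5.33 on high 3 to 3.02 on low 2.

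No gene differed between the groups past an adjusted p of 0.05. Of 45037 probe sets tested, 0 (0%) passed an adjusted p of 0.05 in limma, and the lowest adjusted p was 0.286. At an unadjusted p of 0.05, 473 probe sets (1.05%) were higher in the high group and 1607 (3.57%) were lower. A plain F test gave 440 higher and 1500 lower and also 0 past the adjusted threshold. With 1 probe set taken per gene, 230 of 18193 genes (1.26%) were higher and 980 (5.39%) were lower in the high group at an unadjusted p of 0.05, which is 1210 (6.65%) in either direction. Among the 10272 genes with a mean log2 of 4 or more, 201 (1.96%) were higher and 900 (8.76%) lower, and their median difference was -0.06, against -0.0025 over all genes. The surplus of lower genes depended on the scaling of the arrays. After quantile normalization 830 probe sets were higher and 1005 lower, so that 45.2% of calls were higher, against 22.7% as deposited. In this whole-tissue RNA, fewer cells of a type and less RNA per cell cannot be told apart. A gene is called higher or lower at an unadjusted p below when it passed 0.05 before adjustment, and no such gene held after adjustment over all probe sets.

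The mitochondrial respiratory chain carries electrons to oxygen and drives ATP synthesis. Of its 35 measured members 34 averaged lower in high triglyceride adipose tissue and 16 were lower at an unadjusted p of 0.05, against 5.39% of all genes and 8.76% of those with a mean log2 of 4 or more. None of the 35 was higher at that threshold. The median difference was -0.20, and the 16 included subunits of each of the 4 complexes and of the ATP synthase.

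Atp5j codes for a coupling subunit of the ATP synthase. Its lowest, median and highest levels were 11.71, 12.02 and 12.10 in the high group and 12.12, 12.23 and 12.37 in the low group. The groups did not overlap, and the difference was -0.26 (SE 0.06; limma, unadjusted p = 0.000334, adjusted p = 0.638). Only 8 of 18193 genes (0.044%) had groups that did not overlap in either direction. Uqcrfs1, the iron-sulfur protein of complex III, had 10.83, 10.99 and 11.45 in the high group and 11.16, 11.59 and 11.85 in the low group. It had the largest difference of the list, -0.49 (SE 0.12; unadjusted p = 0.000992), with an overlap of the highest high and the lowest low arrays. Ndufs1, the largest subunit of complex I, had 10.10, 10.34 and 10.68 in the high group and 10.39, 10.75 and 10.96 in the low group, a difference of -0.37.

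Among the other complex I subunits, Ndufa1 differed by -0.23, Ndufa4 by -0.31 and Ndufv2 by -0.35, each at an unadjusted p under 0.05. Ndufa4 is now counted by many as a subunit of complex IV. In complex II, the succinate dehydrogenase that also serves the citric acid cycle, Sdha differed by -0.28, Sdhc by -0.30 and Sdhd by -0.27. Sdhb differed by -0.30 and did not pass (unadjusted p = 0.0882). The catalytic ATP synthase subunits Atp5a1 and Atp5b differed by -0.19 and -0.21. In complex IV, the cytochrome oxidase, Cox4i1 differed by -0.15 and passed, whereas Cox5a at -0.07 and Cox6b1 at -0.05 did not. Cycs, the soluble carrier cytochrome c, was the only member not below 0, with 13.14, 13.64 and 14.20 in the high group and 13.27, 13.64 and 13.91 in the low group. The chain counts take 1 probe set per gene, and other probe sets with strong signal did not all pass. Those of Sdhc (-0.10), Sdhd (-0.03), Ndufb9 (-0.13) and Ndufv2 (-0.13 and -0.18) averaged lower and did not pass an unadjusted p of 0.05. Those of Sdha (-0.32), Ndufb5 (-0.37) and Atp5a1 (-0.27) passed. Another of Atp5a1, of weaker signal, differed by 0.04.

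**Figure D2:**
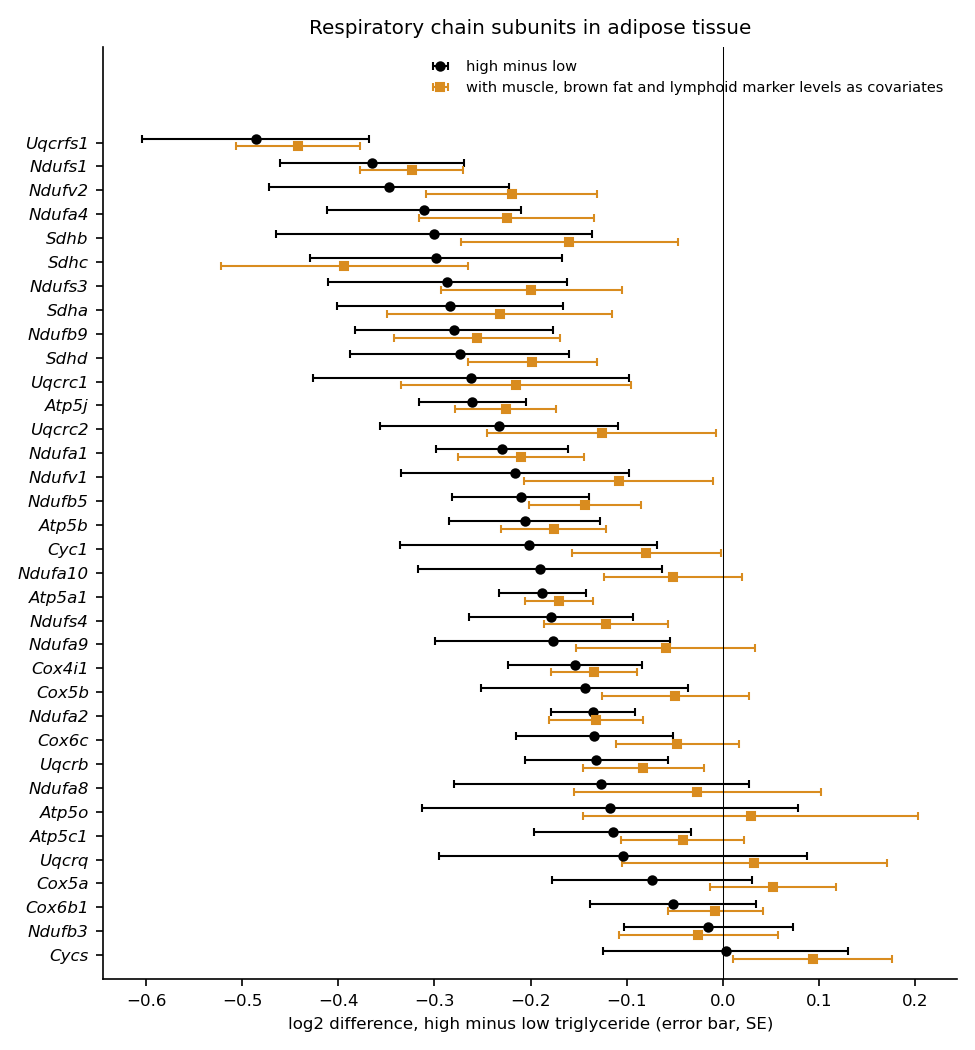
Log2 difference, high minus low triglyceride, of the 35 measured respiratory chain genes in adipose tissue, as deposited and with muscle, brown fat and lymphoid levels as covariates (error bars, SE). Of the 35, 34 lie below 0 as deposited and 31 with the covariates.

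The promoters of 3 chain genes are shown because these genes span the differences of the list: Atp5j had groups without overlap, Uqcrfs1 the largest difference and Cycs none. Each is the RefSeq window (GRCm38.p6) from 250 bases before to 50 bases after the start of the gene. Capitals mark matches on either strand to the nuclear respiratory factor 1 core CGCATGCG, the Ets core CCGGAAG, the estrogen-related receptor element AAGGTCA or the cyclic AMP response element TGACGTCA, none of which contains another.
Atp5j, chr16:84834927-84835226, minus strand: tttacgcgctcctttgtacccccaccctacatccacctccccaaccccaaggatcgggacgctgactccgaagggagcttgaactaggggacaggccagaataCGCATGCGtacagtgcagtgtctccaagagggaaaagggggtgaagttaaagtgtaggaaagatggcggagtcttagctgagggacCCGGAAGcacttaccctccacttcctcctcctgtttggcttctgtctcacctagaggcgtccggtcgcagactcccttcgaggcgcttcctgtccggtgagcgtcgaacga
Uqcrfs1, chr13:30545267-30545566, minus strand: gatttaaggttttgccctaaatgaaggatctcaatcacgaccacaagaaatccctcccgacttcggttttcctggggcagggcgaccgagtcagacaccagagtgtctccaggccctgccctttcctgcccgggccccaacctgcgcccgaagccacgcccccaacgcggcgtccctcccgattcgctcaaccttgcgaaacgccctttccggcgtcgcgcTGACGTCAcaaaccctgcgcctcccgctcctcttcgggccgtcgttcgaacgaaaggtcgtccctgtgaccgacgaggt
Cycs, chr6:50566520-50566819, minus strand: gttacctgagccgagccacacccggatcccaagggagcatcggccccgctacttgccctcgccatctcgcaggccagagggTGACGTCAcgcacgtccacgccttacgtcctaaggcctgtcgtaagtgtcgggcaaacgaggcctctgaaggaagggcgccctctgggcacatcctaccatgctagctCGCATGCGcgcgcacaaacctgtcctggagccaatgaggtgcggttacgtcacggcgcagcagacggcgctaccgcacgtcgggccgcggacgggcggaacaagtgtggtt
Windows were found for 24 of the 35 chain genes. The nuclear respiratory factor 1 core was in 4 of the 24 (16.7%), against 2.07% of 27025 genes, and Atp5j and Cycs both held it. The Ets core was in 5 (20.8%), against 9.93% of genes, and the cyclic AMP response element in 3 (12.5%), against 2.03%. The estrogen-related receptor element was in 1 (4.17%), against 5.38% of genes. Cycs, which did not differ, held the nuclear respiratory factor 1 core as Atp5j did and the cyclic AMP response element as Uqcrfs1 did. The 3 genes were chosen by their differences, so they cannot show whether the motifs go with the differences, which was not tested. These matches are letters in a window and no measurement of binding.

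The chain list was also described with the signal of other tissues taken into account. With muscle, brown fat and lymphoid levels as covariates the median difference was -0.13, with 31 of 35 members below 0 and 14 lower at an unadjusted p of 0.05. In that fit 7.41% of all genes were lower. The brown fat list itself names the cytochrome oxidase subunits Cox7a1 and Cox8b, so this covariate is not separate from the chain. After quantile normalization the median was -0.15, with 33 below 0 and 8 lower, against 3.36% of all genes lower in that setting. Leaving out 1 array at a time gave 12 lower members without high 2 and 22 without high 8. Of all genes 4.09% and 5.08% were lower without these arrays. By array, the mean level of the chain was below the mean of all 16 on 6 of the 8 high arrays, and above it on high 1 and high 8, the high arrays with the most brown fat signal. It was above the mean on 6 low arrays and at or below it on low 7 and low 8.

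Ppargc1a, the coactivator that drives mitochondrial gene expression and is abundant in brown fat and muscle, was also lower. It was singled out after its values were seen. Its lowest, median and highest levels were 4.36, 5.01 and 5.45 in the high group and 5.34, 6.07 and 6.76 in the low group, with an overlap at one end only. The difference was -1.07 (SE 0.22; a level of 0.475 of that of the low group; limma, unadjusted p = 0.000226, adjusted p = 0.624). It was -0.92 with muscle, brown fat and lymphoid levels as covariates. The brown fat level has Ppargc1a as a member, so that fit sets the gene partly against itself. The 4 other probe sets of the gene differed by -1.17, -0.65, -0.52 and -0.20. Prdm16, a regulator of the brown adipocyte fate, differed the other way by 0.62 (unadjusted p = 0.0206, likewise chosen after its values were seen), and Ucp1 ran from 3.39 to 11.99 in the high group and from 3.41 to 11.77 in the low group.

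Hspa9 and Suclg2 stood among the 10 genes with the lowest p in the lower direction. They are given here with Hspd1 and Got2 of other lists because all 4 proteins are found in mitochondria. They were put together after their values were seen, and no count stands behind the grouping. Hspa9, the chaperone that pulls proteins into the mitochondrial matrix, had 11.03, 11.14 and 11.44 in the high group and 11.38, 11.45 and 11.60 in the low group, a difference of -0.31 (unadjusted p = 4.05e-05). Suclg2, the GTP-forming subunit of succinyl-CoA ligase in the citric acid cycle, had 9.67, 9.94 and 10.19 in the high group and 10.18, 10.36 and 10.73 in the low group, a difference of -0.50 (unadjusted p = 0.000112). For Hspa9 the 7 high arrays other than high 1 lay below every low array, and the groups of Suclg2 overlapped only between 10.18 and 10.19. Hspd1, the chaperonin that folds proteins in the matrix, differed by -0.30 (unadjusted p = 0.0017) and was the only one of 21 heat shock and folding genes to pass. The cytosolic chaperone Hsph1 differed by -0.25 (unadjusted p = 0.0577). Got2, the mitochondrial aspartate aminotransferase that is also described as a fatty acid binding protein of the plasma membrane, differed by -0.79 (unadjusted p = 0.00163). Of 18 fatty acid oxidation genes 15 averaged lower and 0 passed an unadjusted p of 0.05 in either direction. Their median was -0.07, against -0.06 for all genes with a mean log2 of 4 or more, but it was -0.20 without high 8 and -0.0045 without high 4. The peroxisomal enzyme Ehhadh differed by -0.43 and the mitochondrial dehydrogenase Acadvl by -0.31, with unadjusted p of 0.0771 and 0.132.

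Of 26 genes of fatty acid and triglyceride synthesis, 8 were lower and 1 was higher in the high group at an unadjusted p of 0.05, against 8.76% and 1.96% of genes with a mean log2 of 4 or more. Of the 26, 19 averaged lower and 7 higher, and the median was -0.26. Gpam, which adds the first fatty acid to glycerol phosphate, had 10.47, 10.87 and 11.21 in the high group and 10.87, 11.33 and 11.87 in the low group. Its difference was -0.53 (SE 0.13; unadjusted p = 0.00129), and 2 of its 2 probe sets averaged lower. Acacb, the mitochondrial acetyl-CoA carboxylase whose product restrains fatty acid oxidation, had 7.23, 7.38 and 8.04 in the high group and 7.13, 9.05 and 9.74 in the low group. The high arrays lay close together and the low arrays were spread, and the difference was -1.14 (SE 0.33; unadjusted p = 0.00361). The cytosolic carboxylase Acaca differed by -0.70, the desaturases Fads1 and Fads2 by -0.66 and -1.36, and Mlxipl, the carbohydrate-responsive transcription factor ChREBP, by -0.59.

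The acyltransferases that complete triglyceride did not all differ the same way. Mogat1, a monoacylglycerol acyltransferase, had 6.24, 6.56 and 7.41 in the high group and 6.36, 7.39 and 8.15 in the low group, a difference of -0.63 (unadjusted p = 0.0167). Its relative Mogat2 had 4.33, 6.88 and 8.11 in the high group and 3.24, 4.66 and 8.20 in the low group, a difference of 1.65 (unadjusted p = 0.0415). Dgat1, which adds the last fatty acid, differed by -0.33. The abundant lipogenic genes were spread in the low group and did not pass: Fasn, the fatty acid synthase, had 12.29, 12.48 and 12.81 in the high group and 11.48, 13.04 and 13.70 in the low group. Leaving out 1 array at a time gave between 5 lower members (without low 3) and 9 (without low 1).

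The counts of genes that take up, store and release fatty acids stand against the 8.76% lower and 1.96% higher among all genes with a mean log2 of 4 or more. Lpl, lipoprotein lipase, differed by -0.02, and the fatty acid translocase Cd36 by 0.02. Of 18 uptake genes 1 was higher and 2 were lower at an unadjusted p of 0.05: Vldlr, a receptor of triglyceride-rich lipoproteins, by 0.44, and Got2 and Lmf1, the maturation factor of lipoprotein lipase, by -0.79 and -0.34 (Lmf1 by -0.22 without high 7). The lower count was 1 without high 5 and 4 without high 1. Of 15 lipolysis genes only Pnpla2, the lipase that starts triglyceride breakdown, passed, with a difference of -0.46 (unadjusted p = 0.0148), and 3 were lower without low 7. Hcar1, the lactate receptor that restrains lipolysis, differed by -0.73 (unadjusted p = 0.0673). The lipid droplet coat list had 0 of 12 members past an unadjusted p of 0.05 and a median of 0.02. Hilpda, an inhibitor of Pnpla2, differed by 0.81 and the coat protein Plin3 by 0.17, neither past that threshold. In the adipocyte identity list 3 of 13 members were lower, namely Pnpla2, the adipocyte transcription factor Cebpa (-0.41) and the hormone gene Retn (-0.35), and 1 was higher, namely Lep. The lower count of that list was 2 without high 3 and 5 without high 1.

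Lep, the gene of leptin, was higher in the high group. Its lowest, median and highest levels were 12.44, 13.04 and 13.55 in the high group and 10.82, 11.94 and 13.03 in the low group. The levels of low 6, low 7 and low 8 lay within the range of the high group, and those of low 1 to low 5 lay below every high array, at 12.04 or less. The difference was 1.03 (SE 0.33), a 2.04-fold level (limma, unadjusted p = 0.00769). Leptin was not set against the fat mass of single mice, whose fat pad weights were not joined to the arrays here, and the part of fat mass in its difference was not tested. Of the 12 genes known to follow fat pad expansion 9 averaged higher, with a median of 0.31, and Lep was the only one to pass an unadjusted p of 0.05. Npr3, the clearance receptor of natriuretic peptides, differed by 0.25 (unadjusted p = 0.0892). Its other probe sets, which do not enter that count, differed by 0.53 and 0.48 (limma, unadjusted p = 0.0457 and 0.027). Among 17 adipokines, Retnla, a resistin-like secreted protein, was higher by 0.46, and Agt, the angiotensin precursor that adipocytes secrete, was lower (-1.57, unadjusted p = 0.0201), with 5.22, 8.11 and 9.39 in the high group and 7.16, 9.68 and 10.69 in the low group.

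**Figure D3:**
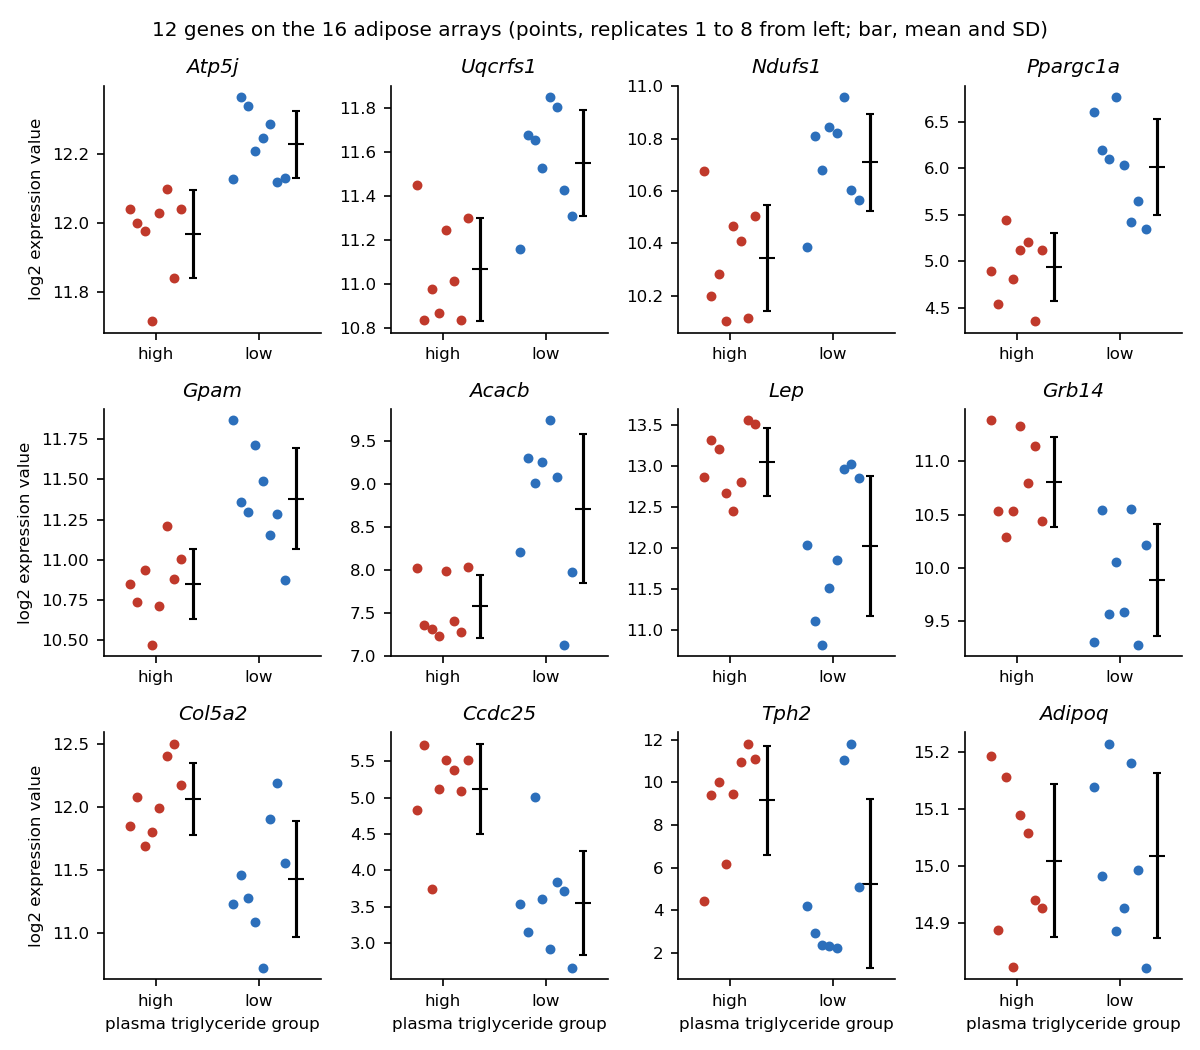
Log2 signal of named genes on each of the 8 high triglyceride (left) and 8 low triglyceride (right) arrays (points), with the mean and SD of each group beside them (bar). Atp5j does not overlap between the groups, whereas Lep overlaps through low 6, low 7 and low 8.

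The insulin signalling list held members in both directions. Grb14, an adaptor that binds the insulin receptor and inhibits it, had 10.29, 10.67 and 11.39 in the high group and 9.28, 9.82 and 10.55 in the low group. It was higher by 0.92 (SE 0.23; unadjusted p = 0.00144), and Gsk3b, the kinase that insulin switches off to permit glycogen synthesis, by 0.32. Members that were lower included Igf1r, the receptor of insulin-like growth factor, by -0.68, and Tbc1d4, which Akt phosphorylates to release the glucose transporter, by -0.57. The catalytic and regulatory phosphoinositide kinase subunits Pik3ca and Pik3r1 were lower by -0.38 and -0.37. Other probe sets of these subunits did not all agree, from -0.43 to 0.05 for Pik3ca and from -0.52 to 0.32 for Pik3r1. Of 18 measured members 2 were higher and 4 lower at an unadjusted p of 0.05, against 1.96% and 8.76% of genes with a mean log2 of 4 or more, and the median was -0.20. The glucose transporter Slc2a4 (-0.43) and the receptor substrate Irs1 (-0.44) averaged lower and did not pass, at an unadjusted p of 0.0558 and 0.17. The count of lower members was not steady across settings: it was 2 with muscle levels as a covariate and 8 with array weights, and 2 without high 2 and 8 without low 7. The share of all genes that were lower in these settings was, in that order, 5.94%, 7.38%, 4.09% and 6.84%.

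Of 27 measured collagens and matrix genes, 7 were higher in the high group at an unadjusted p of 0.05, against 1.26% of all genes, and 0 were lower. By their mean 25 of the 27 were above 0. The median difference was 0.39. Col5a2, a chain of the collagen that starts fibrils, had 11.69, 12.03 and 12.50 in the high group and 10.72, 11.37 and 12.19 in the low group. It was higher by 0.63 (SE 0.19), and its second probe set by 0.90. Col3a1, a fibrillar collagen of soft tissue, had 13.98, 14.28 and 14.64 in the high group and 13.40, 13.87 and 14.43 in the low group, a difference of 0.44. Mfap5, a protein of elastic microfibrils, was higher by 0.50 (unadjusted p = 0.00217), and its groups overlapped only between 9.77 and 9.92. Col5a1 differed by 0.52, Col6a2, a chain of the collagen around adipocytes, by 0.73, Col1a2 by 0.36 and the basement membrane collagen Col4a1 by 0.50.

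Both the matrix and the macrophage levels set low 6 and low 7 apart from the other low arrays. The matrix level was between -0.73 and -0.27 on low 1 to low 5, at -0.03 on low 8, and at 0.40 and 0.66 on low 6 and low 7. Low 6 and low 7 also had macrophage levels of 1.08 and 1.32, as high as the 1.25, 0.85 and 1.25 of high 6, high 7 and high 8. On the other 11 arrays the macrophage level was below 0. With the macrophage level as a covariate, chosen after seeing the data, the median of the matrix list was 0.21 and 7 members were higher. With the adrenal and kidney level it was 0.55 and 10 were higher. Of all genes 1.29% were higher with the macrophage level and 2.03% with the adrenal and kidney level. Leaving out 1 array at a time gave 6 higher members without high 2 and 11 without low 6. Of the fibroblast and preadipocyte markers, the cells that make collagen, 2 of 10 were higher, against 1.96% of genes with a mean log2 of 4 or more. Their median was near 0 (-0.00042). These 2 were Fap (0.60) and Dpt (0.33), named after their values were seen.

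Macrophage markers themselves averaged higher in 23 of 24 cases, with a median of 0.28, but only Csf1r, the receptor of the macrophage growth factor, passed an unadjusted p of 0.05 (0.33; named after its values were seen). Its 2 other probe sets differed by 0.04 and 0.05. The spread within each group was larger than the difference between them. Adgre1, a surface receptor of mouse macrophages, had 7.48, 8.29 and 10.05 in the high group and 7.05, 8.06 and 10.12 in the low group. Cholesterol synthesis and uptake genes had a median of 0.27, with 15 of 18 above 0 and 0 past an unadjusted p of 0.05 (3 without low 7). The pathway enzymes Hmgcs1 and Idi1 differed by 0.40 and 0.29. These counts take 1 probe set per gene, and other probe sets of both enzymes passed. For Hmgcs1 those at 0.67 and 0.75 passed and those at 0.41 and 0.55 did not, and for Idi1 the one at 0.50 passed. The level of the cholesterol genes was raised on the same arrays as the macrophage markers, at 0.40, 0.65 and 0.53 on high 6, high 7 and high 8 and 0.48 and 0.74 on low 6 and low 7. With the macrophage level as a covariate their median was 0.06.

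**Figure D4:**
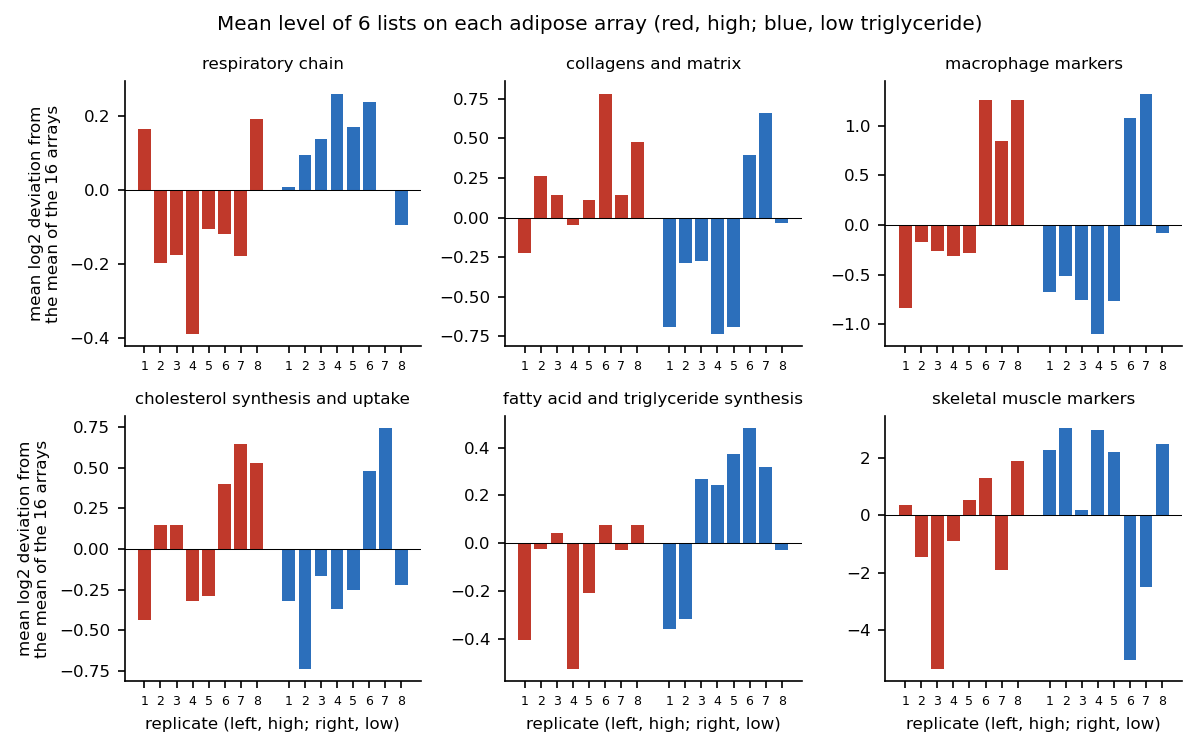
Mean level of gene lists on each adipose array, relative to the mean of the 16 arrays, with high triglyceride arrays on the left and low triglyceride arrays on the right. The matrix level of low 6 and low 7 (0.40 and 0.66) lies among the high arrays, and that of low 1 to low 5 lies at -0.27 or below.

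Of 27 chemokines and cytokines 2 were higher and 1 was lower at an unadjusted p of 0.05, against 1.26% and 5.39% of all genes, and 6 were higher without low 7. Ccl11, which attracts eosinophils, was higher by 0.52 (unadjusted p = 0.00922) and Cxcl14 by 0.96, whereas Cx3cl1, the chemokine fractalkine, was lower (-0.70, unadjusted p = 0.00329). Cx3cl1 had 3.34, 3.73 and 4.02 in the high group and 3.84, 4.35 and 5.13 in the low group, low levels near the bottom of the scale. Ccl2, the main monocyte chemokine, had 6.15, 8.69 and 9.89 in the high group and 4.76, 5.56 and 10.56 in the low group and did not pass. The antigen presentation list had 0 of 15 members past an unadjusted p of 0.05, and H2-D1 of class I and H2-Eb1 of class II differed by -0.27 and 0.49. Other probe sets of H2-D1 with strong signal disagreed in sign. One differed by 0.58 (limma, unadjusted p = 0.0297) and another by -0.30, so H2-D1 has no single direction here. In the interferon response list 17 of 20 members averaged lower, with a median of -0.31, but 2 were lower (Oasl2, -1.11, and Ifit1, -0.93) and 1 was higher (Gbp2, 0.30). The count of lower members depended on the fit: it was 9 with the lymphoid level as a covariate and 0 with the muscle or the macrophage level, and 0 without high 1 and 4 without high 4. Of all genes 7.10%, 5.94% and 5.58% were lower with the lymphoid, muscle and macrophage levels.

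The remaining lists held few differences. Among 18 clock genes Nr1d1, the nuclear receptor that represses the core clock, was lower (-0.68, unadjusted p = 0.00111), with 6.08, 6.54 and 7.38 in the high group and 6.91, 7.18 and 7.64 in the low group. Tef, a clock output factor, was lower (-0.60). Of the clock list 2 of 18 were lower and 0 higher at an unadjusted p of 0.05. Among genes with a mean log2 of 4 or more, 8.76% were lower and 1.96% higher. The lower count of the clock list was 1 without high 2 and 6 without high 5. The hour at which each mouse was killed is not given in the sources used here. Among 18 immediate early genes 2 were higher, Ccn1 (0.69) and Dusp1 (0.48), and 1 was lower, Jun (-0.44), against 1.96% and 8.76%. Without low 2, 0 were higher. Cell cycle genes had 0 of 21 members past an unadjusted p of 0.05 and a median of 0.21, and 4 were higher without low 7. The mitotic kinase Cdk1 and the proliferation marker Mki67 differed by 0.89 and 0.98, with unadjusted p of 0.0627 and 0.0774.

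**Figure D5:**
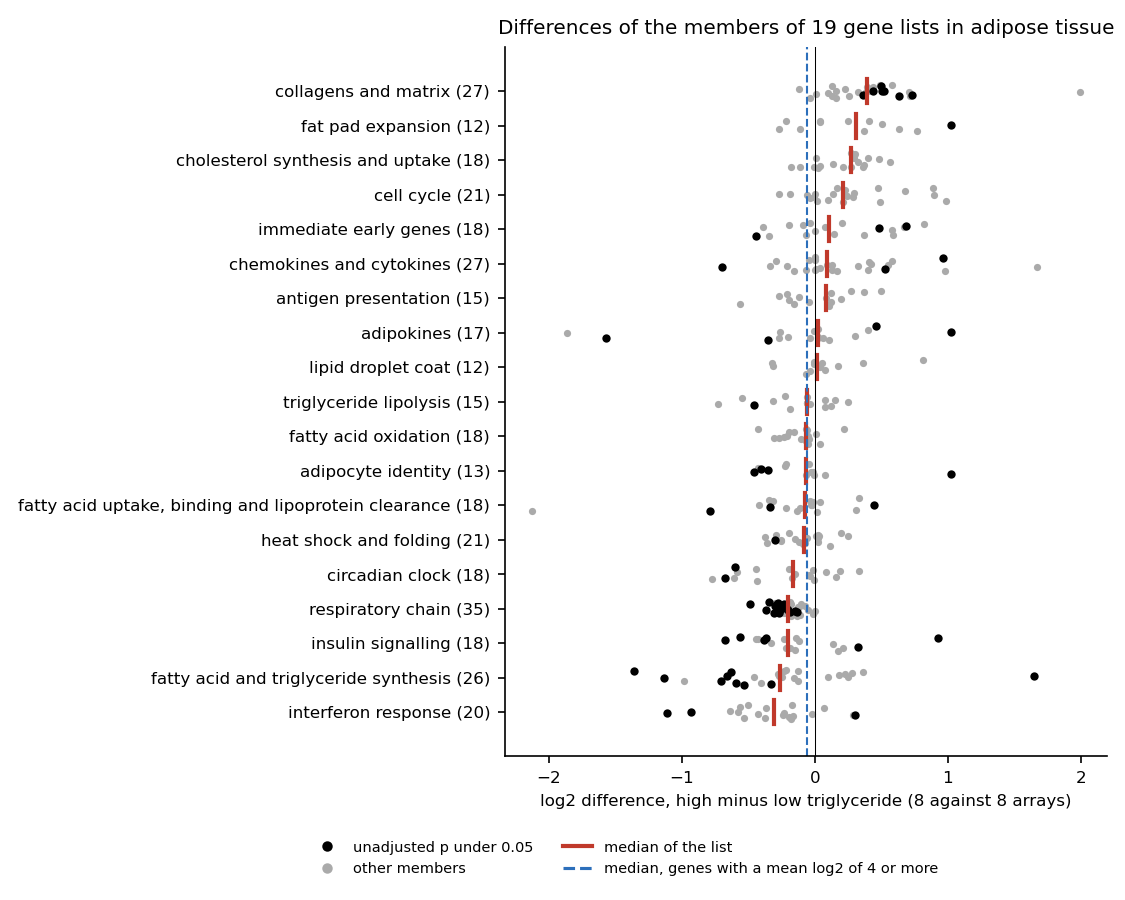
Log2 difference, high minus low triglyceride, of every measured member of the gene lists in adipose tissue, with members past an unadjusted p of 0.05 in black and the median of each list as a bar. Collagens and matrix genes have the highest median (0.39) and the interferon response (-0.31) the lowest, against -0.06 for genes with a mean log2 of 4 or more.

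The lowest p of any gene belonged to Bod1, a protein of chromosome alignment in mitosis. It had 7.81, 7.98 and 8.19 in the high group and 8.24, 8.52 and 8.72 in the low group, with no overlap and a difference of -0.51 (limma, unadjusted p = 1.15e-05, adjusted p = 0.286). Dda1, a component of a ubiquitin ligase complex, had 8.83, 8.97 and 9.09 in the high group and 8.58, 8.69 and 8.81 in the low group. It did not overlap either and was higher by 0.29 (unadjusted p = 1.27e-05), but its 2 other probe sets differed by -0.04 and -0.12. The other genes without overlap were lower in the high group: Fkbp4, a co-chaperone of steroid receptors (-0.55), Ulk1, the kinase that starts autophagy (-0.48), Tmed4, a cargo protein of the secretory pathway (-0.39), Xpc, a DNA damage sensor (-0.61), Rab11fip3 (-0.31, but -0.18 without low 7) and Atp5j.

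Of the 10 genes with the lowest p among those higher in the high group, Ccdc25 had the largest difference, 1.56 (2.96-fold), with 3.75, 5.25 and 5.73 in the high group and 2.66, 3.58 and 5.01 in the low group. Depp1 was higher by 0.96, Myl4, a myosin light chain of atrial and embryonic muscle, by 0.71, Mgl2, a lectin of macrophages and dendritic cells, by 0.61, Ptgir, the prostacyclin receptor, by 0.52, and Bace1, the beta-secretase, by 0.49. Eif5, a translation initiation factor, was higher by 0.27, whereas 3 of its 4 other probe sets differed by -0.13, -0.15 and -0.0016. Grb14, Mfap5 and Dda1 complete the 10. Among the 10 lower genes, Nr2f1, an orphan nuclear receptor, had the largest difference, -0.79, with 5.20, 5.53 and 5.93 in the high group and 5.76, 6.31 and 6.83 in the low group. Mettl26 differed by -0.65, the nuclear envelope protein Syne1 by -0.47, Mxi1, an antagonist of Myc, by -0.41, Ddrgk1 by -0.35 and Rmnd5a by -0.31. Bod1, Hspa9 and Suclg2 also belong to these genes. Cyp2e1, an alcohol-oxidizing cytochrome that is abundant in both liver and fat, was lower (-1.01) although the liver markers averaged higher, with 12.04, 13.02 and 14.19 in the high group and 13.05, 14.26 and 14.67 in the low group (named after its values were seen).

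The study drew most of its adipose genes from arrays of these mice, by association with genetic markers or body and fat pad weights. It measured them by quantitative PCR in the parental strains, so neither comparison was that of the triglyceride groups. None of these genes that were measured here passed an adjusted p of 0.05. Cyp27a1, a mitochondrial sterol hydroxylase, differed by -0.39, the deubiquitinase Usp37 by -0.44 and Irs1 by -0.44, with unadjusted p of 0.132, 0.182 and 0.17. Without high 2 the difference of Usp37 was -0.19, and without high 7 that of Cyp27a1 was -0.26. The chemokines Ccl6 and Ccl9 differed by 0.40 and 0.58, with unadjusted p of 0.257 and 0.284, and by 0.26 and 0.36 without high 8. Ccl3 was at the lowest value on 13 of the 16 arrays, and its sign and that of Sirpb1a, a signal regulatory protein, changed between settings. Igfbp2, an insulin-like growth factor binding protein, differed by 0.13 (unadjusted p = 0.634). Mogat1 is given above, and Zfp69 is not analysed here.

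Most of the genes that varied most over the 16 arrays are known from organs other than fat. By SD they were the steroid synthesis genes Hsd3b1, Star, Cyp11b1, Cyp11a1 and Cyp21a1 of the adrenal cortex, the granule proteins Chgb and Scg2 of neuroendocrine cells, the muscle myosins Myh1 and Myh4, and Tph2, the serotonin synthesis enzyme of neurons. Tph2 had 4.42, 9.71 and 11.79 in the high group and 2.24, 3.56 and 11.81 in the low group. Their values are given as a description with no test.

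The high minus low differences of adipose tissue were last set against those of liver, pancreas and muscle of the same mice, as the difference within each mouse between adipose tissue and the mean of the other tissues. Of 18193 genes 0 (0%) passed an adjusted p of 0.05 in limma, and 1338 (7.35%) passed an unadjusted p of 0.05 in either direction. The directions were uneven over all 45037 probe sets: 769 lay above the other tissues and 1777 below at that threshold. The counts of list members below stand against this skew. The respiratory chain had a median difference of -0.20 in liver, as in adipose tissue, but of 0.09 in pancreas and 0.08 in muscle. Signal of other tissues also differed on the liver arrays, where adipocyte markers had a median difference of -1.61 and skeletal muscle markers of -1.10. Its part in the liver values and in the differences within mice was not tested. Against the mean of the other tissues 6 of 35 chain genes lay below at an unadjusted p of 0.05, among them Atp5j by -0.31 (limma, adjusted p = 0.491) and Uqcrfs1 by -0.48 (adjusted p = 0.636). The matrix list had medians of -0.46 in liver, 0.00 in pancreas and 0.06 in muscle, and 9 of 27 members lay above the other tissues. Of the synthesis list 5 of 26 members lay below and 1 above, and of the clock list 6 of 18 below and 1 above. Among the named genes, Ddrgk1 differed from the other tissues by -0.50 (limma, adjusted p = 0.225) and Ccdc25 by 1.45 (adjusted p = 0.34), and neither passed. Both were named for a low p in adipose tissue. The same adipose values enter this difference, so it is no separate test of these genes.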

How the data were processed

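Total RNA of adipose tissue, liver, pancreas and muscle of 16 mice was hybridized to 64 one-colour Affymetrix Mouse Genome 430 2.0 arrays. The log2 values were deposited by the authors, who made them with GCRMA (background correction, quantile normalization and summary of the probes of each probe set), which places many unexpressed probe sets at 1 lowest value. Scanner files were not used here. Of 45101 probe sets 64 controls were left out and 45037 were tested. By the platform annotation 34945 had 1 gene, 932 several and 9160 none. A gene was represented by the probe set of the highest mean, giving 18193 genes, of which 1780 were at the lowest value (2.24) on all 16 arrays, as were 14.9% of probe sets. Arrays correlated with r between 0.961 and 0.992. The number of arrays, 8 mice per group, limits the precision, and each array is a separate mouse.

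High minus low was fitted with limma 3.58.1 in R 4.3.3 on the 16 adipose arrays, with Benjamini-Hochberg adjustment over all probe sets, and was tested on simulated data. Gene lists are described by counts and medians beside those of all genes. Members and lists were chosen with earlier results of these data known. Named were the 10 genes higher and the 10 lower with the lowest unadjusted p among those with a mean log2 of 4 or more, the genes followed by the study in adipose tissue, the 10 of largest SD, 3 markers, and from each list the 2 members of lowest p with 1 or 2 well-known members. Of the genes that this rule names, 1 is not reported here. Alternatives were quantile normalization, a filter at a mean log2 of 4, a plain F test, trend and robust moderation, array weights, mouse number, a block on the replicate number, marker levels as covariates and leaving out each array. The adrenal and kidney and the macrophage covariates were chosen after seeing the data. Tables were handled with the data.table package (version 1.17.8), pandas 2.3.3 and numpy 2.4.6 in python 3.11.15 and drawn with matplotlib 3.10.9. A table of traits and genotypes was not used because it could not be tied to the arrays.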

Additional observations from a re-analysis of the deposited data

Results flagged for a closer look

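In 242 groups of 8 arrays (121 genes in 2 groups), 12 held 1 array that stood apart from the other 7 by Dixon's test. Chance alone gives about 1 in 20, and the 12 are about that share. They are listed as a description of single arrays. In the high group, Ccdc25 was at 3.752 on high 3, against 4.832 to 5.732 on the others. Hspa9 was at 11.44 on high 1 (others 11.03 to 11.2), Sirpb1a at 5.331 on high 8 (2.424 to 3.704), and Lmf1 at 4.563 on high 7 (5.226 to 5.665). Usp37 and Igf1r were at 2.751 and 6.262 on high 2, where the others had 4.371 to 5.297 and 7.161 to 7.815. Myh4, a fast muscle myosin, was at 3.086 on high 3 (8.522 to 13.05).

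In the low group, Myh1, another fast muscle myosin, was at 2.428 on low 6 (8.771 to 13.26). Ccl3 was at 3.301 on low 7, and the others were all at the lowest value of 2.237. Rab11fip3 was at 6.174 on low 7 (5.006 to 5.421) and Xpc at 7.933 on low 1 (6.949 to 7.298). Prdm16 was at 7.775 on low 2 (6.337 to 6.861). High 3 and low 6 were the arrays of the lowest muscle level, at -5.33 and -5.04. High 2 had the lowest array weight, 0.49.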

How the results depend on the processing

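The count of probe sets past an adjusted p of 0.05 was 0 as deposited and under every alternative except the replicate block, which gave 4 (lowest adjusted p 0.00882), and ranged from 0 to 1 when 1 array was left out (1 without high 1). Replicate numbers mark different mice and follow the mouse numbers of each group except for low 7 and low 8. Deviations of same-numbered arrays had r from -0.26 to 0.36, over 0.1 for 4 of 8 numbers, and 1 high and 2 low arrays correlated best with their own number, so the block was not treated as a pairing. At an unadjusted p of 0.05 the higher count of 473 was 830 after quantile normalization, 999 with array weights and 712 with the adrenal and kidney level, and 301 (without low 5) to 764 (without low 7) when 1 array was left out. The lower count of 1607 was 1005 after quantile normalization and 1167 (without high 7) to 1998 (without low 7) when 1 array was left out. The difference against the other tissues had 0 calls, and 0 to 2 when 1 array was left out (1 without high 3, 2 without high 6). Signs changed for Myh4 (0.93 with the muscle level, 0.69 with muscle, brown fat and lymphoid levels; -1.94 to 0.16 leaving out 1 array), Sirpb1a (0.36 with array weights, 0.091 with the brown fat level, 0.35 with the adrenal and kidney level; -0.407 to 0.265) and Ccl3 (0.0097 with array weights, 0.026 with the adrenal and kidney level; -0.109 to 0.062). They also changed for Adipoq (0.027 after quantile normalization, 0.032 with array weights, 0.0075 with the brown fat level, 0.0034 with the adrenal and kidney level; -0.037 to 0.0197), Fabp4 (0.018 after quantile normalization) and Igfbp2 (-0.021 to 0.302 leaving out 1 array). The muscle level has Myh4 as a member, so the fits of Myh4 with that level set the gene partly against itself. The cause of the other changes was not tested. Hspa9 passed an adjusted p of 0.05 without high 1.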
